A study of Drosophila melanogaster with 12 samples.

Results

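The genes described here make, transport and sense glutamate and GABA in the head of Drosophila melanogaster. They were chosen as the probe sets that the array annotation assigned to any of 8 listed genes, which are Gad1, Rdl, VGlut, Nmdar1, Nmdar2, Eaat1, Eaat2 and Gs2. Of these, 7 had a probe set, among 10844 genes named on the array, and Nmdar2 had 2, which gave 8 probe sets of 13966 that were not controls. No probe set was assigned to Eaat1, so it was not analysed here. A total of 7 probe sets, 1 for each of the 7 genes, passed a filter that removed the dimmest 40% of probe sets and left 8379 for testing. The dimmer Nmdar2 probe set did not pass and is given as values.

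In insects GABA is the main inhibitory transmitter of the brain. Gad1 makes it from glutamate, and Rdl is a subunit of the chloride channel that it opens. Glutamate is the transmitter of the neuromuscular junction and of a class of brain neurons, is loaded into vesicles by VGlut, and acts on NMDA-type receptors built from Nmdar1 and Nmdar2. Transporters such as Eaat2 take up acidic amino acids, and glutamine synthetase such as Gs2 turns glutamate into glutamine, largely in glia.

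RNA came from heads of 5-day-old Canton-S males after 21 generations of selection on fighting, with 1 single-colour Affymetrix array per sample. Aggressive I and aggressive II were selected for increased aggression, and neutral I and neutral II are the reference populations, selected for a decrease without a significant effect. Each population had 3 arrays, 12 in all. Per the labels, flies were drawn from culture bottles and frozen in groups, so an array reports pooled males. Whether the 3 arrays of a population stand for different cultures is not given in the labels, and a p-value over arrays may then measure only technical spread. The line label of 2 neutral I arrays reads Canton-S without the word selected, and they were kept in their titled group.

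Values are MAS5 signals, the linear intensity per probe set that the Affymetrix algorithm gives. The median signal per array was between 962 and 1050. The median correlation of log2 values was 0.962 between arrays of a population and 0.959 between arrays of different populations. The lowest mean correlations with the other arrays were those of neutral I array 3 (0.951) and aggressive I array 2 (0.952), and the result that changes without them is given both ways. Neuron and glia markers were measured in all 4 populations. Of the neuron list, 6 of 11 genes passed the filter, and their mean log2 signal averaged 12.30 in aggressive I and 12.43 in aggressive II. The neutral averages were 12.34 in neutral I and 12.36 in neutral II. Of the glia list, 9 of 10 passed, with an average of 11.81 in aggressive I and 11.83 in aggressive II, and of 11.82 in neutral I and 11.93 in neutral II. Their median log2 difference between regimes was 0.074 for neuron and -0.049 for glia markers. In RNA of whole heads, fewer cells of a type and less RNA per cell cannot be told apart.

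Between the regimes, 0 of the 7 probe sets passed the threshold, which is a limma adjusted p under 0.05 over all 8379 probe sets. Of all probe sets, 16 passed, or 0.191%. The member with the smallest p was Gad1, which averaged lower in both aggressive populations than in either neutral one. The other 6 had differences between -0.11 and 0.13 on the log2 scale. The single call among the members lay within a regime, where Nmdar1 was higher in aggressive I than in aggressive II. It was kept under 10 of 20 alternative settings or sets of arrays, and Nmdar1 passed the filter only through aggressive I.

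**Figure D1:**
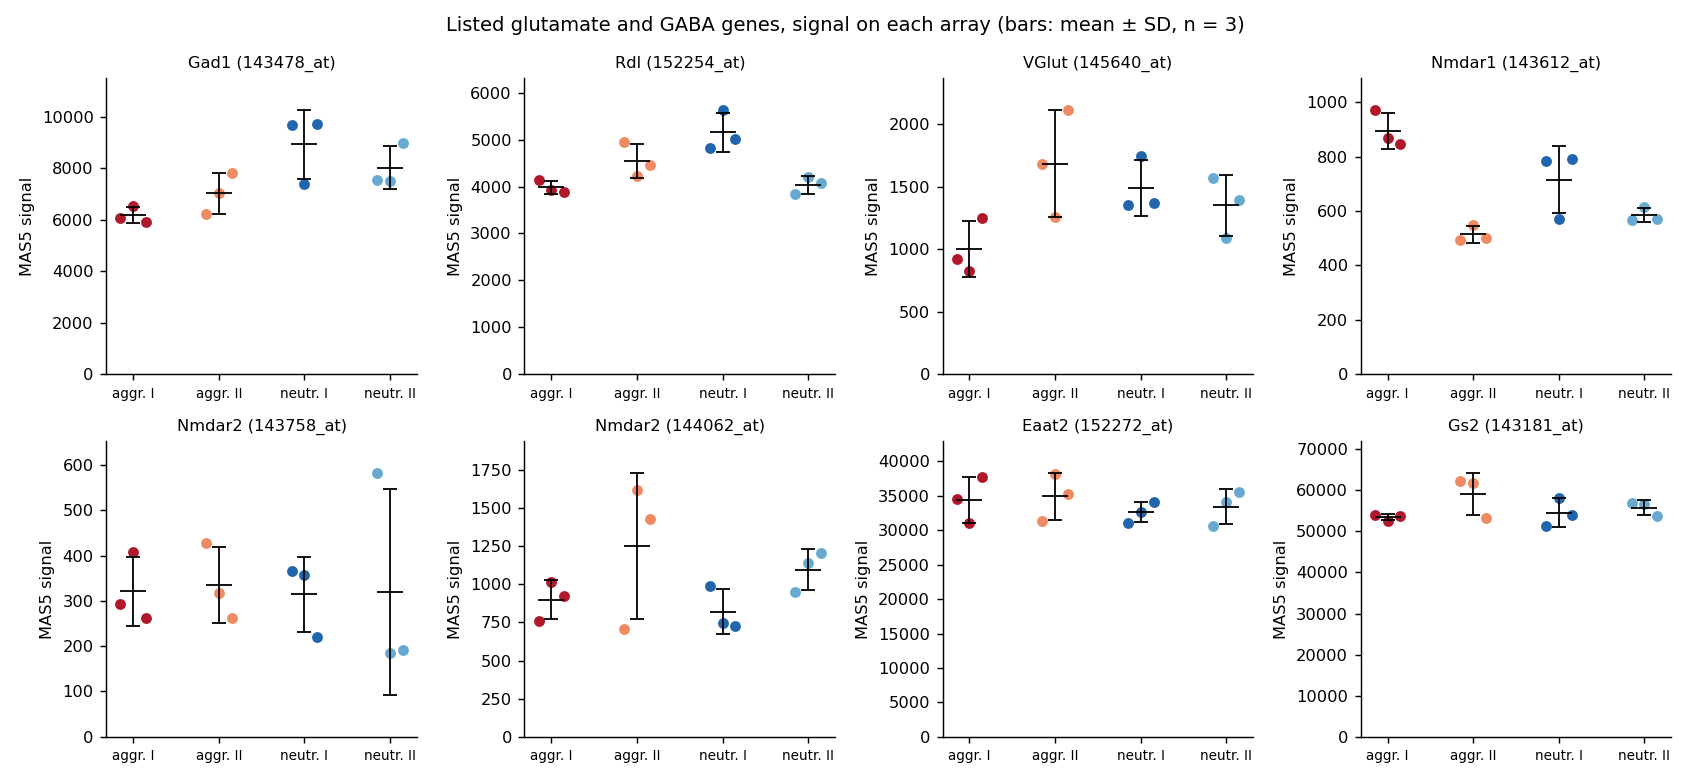
MAS5 signal (linear, vertical axis from 0) of the 8 probe sets on each of the 12 arrays, with 1 point per array and bars for the mean ± SD of each population (n = 3). Gad1 arrays of aggressive I lie below every neutral array, and Nmdar1 is highest in aggressive I and lowest in aggressive II.

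Gad1 encodes glutamic acid decarboxylase, the enzyme that makes GABA. Its signal was 6093, 6557 and 5937 on the arrays of aggressive I, and 6244, 7043 and 7833.5 on those of aggressive II. It was 9702, 7402 and 9715 in neutral I, and 7559.6, 7529 and 8989.9 in neutral II. Thus 5 of 6 aggressive arrays lay below all 6 neutral arrays, and the remaining one, from aggressive II, overlapped them.

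The mean Gad1 signal was 6618 ± 712.9 in aggressive heads and 8483 ± 1113 in neutral heads (SD, n = 6 each). The log2 difference was -0.33 (SE 0.099, 95% interval -0.55 to -0.12), and the neutral level was 1.26 times that of the aggressive populations. This did not pass the test, with a limma adjusted p of 0.342 and an unadjusted p of 0.00502. It ranked 123 of 8379 probe sets by p. Of the 7 member probe sets, 1 had an unadjusted p under 0.05, against 6.85% of all probe sets. The model behind the Gad1 SE and interval gave arrays of a population a shared correlation of 0.0645 for all probe sets. It thus treats the 6 arrays of a regime as nearly independent, although each regime has only 2 populations. With 1 mean per population, 0 of all probe sets passed between regimes.

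Each aggressive population averaged lower in Gad1 than each neutral one. The log2 difference was -0.45 (SE 0.13) for aggressive I against neutral I and -0.35 for aggressive I against neutral II, with limma adjusted p of 0.182 and 0.278. For aggressive II it was -0.32 against neutral I and -0.22 against neutral II, with adjusted p of 0.540 and 0.661. These pairs share arrays and are not separate evidence. Within regimes the difference was -0.13 for aggressive I minus aggressive II and 0.099 for neutral I minus neutral II, with adjusted p of 0.723 and 0.873. In order of the population mean, Gad1 ran neutral I, neutral II, aggressive II, aggressive I, and neighbours in that order did not differ beyond the spread between arrays.

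Rdl encodes the subunit of the GABA-gated chloride channel known for resistance to dieldrin. It read 4143, 3922 and 3887 in aggressive I, and 4945, 4230.3 and 4456 in aggressive II. In neutral I it was 4829, 5629 and 5014, and in neutral II 3833, 4205 and 4071. The highest array was in neutral I and the lowest in neutral II, so the regimes overlapped throughout.

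The regimes averaged 4264 ± 393.7 in aggressive heads and 4597 ± 679.4 in neutral heads for Rdl (SD, n = 6 each). The log2 difference was -0.081 (SE 0.10, 95% interval -0.31 to 0.15, limma adjusted p = 0.927). Neutral I had the highest mean, and its distance to neutral II was as large as to aggressive I. The log2 difference was 0.30 for neutral I minus neutral II (SE 0.11, adjusted p = 0.482) and -0.30 for aggressive I minus neutral I (adjusted p = 0.296). In each of these comparisons the arrays of the populations did not overlap, and neither passed the test.

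VGlut encodes the vesicular glutamate transporter. It read 921, 829 and 1254 in aggressive I, and 1686, 1256 and 2115 in aggressive II. In neutral I it was 1352, 1748 and 1370.5, and in neutral II 1575, 1088 and 1392. The aggressive populations took both ends of the range, with the lowest arrays in aggressive I and the highest in aggressive II.

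VGlut averaged 1343 ± 484 in aggressive heads and 1421 ± 223.3 in neutral heads (SD, n = 6 each). The difference between regimes was -0.11 on the log2 scale (SE 0.20, 95% interval -0.54 to 0.32, limma adjusted p = 0.955). Between aggressive I and aggressive II, whose VGlut arrays did not overlap, the log2 value differed by -0.64 (SE 0.21, 95% interval -1.11 to -0.17, adjusted p = 0.235). This had an unadjusted p of 0.012, which did not pass after adjustment. Against neutral I, the log2 difference was -0.48 for aggressive I and 0.17 for aggressive II, with adjusted p of 0.373 and 0.882. Against neutral II it was -0.39 and 0.26, with adjusted p of 0.498 and 0.810.

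Nmdar1 encodes the obligatory subunit of the NMDA-type glutamate receptor. It read 971, 868 and 847 in aggressive I, but 492, 547 and 501 in aggressive II. In neutral I it was 783, 572 and 791, and in neutral II 568.5, 614.9 and 569.4. All 3 arrays of aggressive I lay above every other array, and all 3 of aggressive II lay below every other array.

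Nmdar1 was higher in aggressive I, at 895 ± 66.5, than in aggressive II, at 513.5 ± 29.6 (SD, n = 3 each). The log2 difference was 0.75 (SE 0.12, 95% interval 0.49 to 1.01), a fold of 1.68, with a limma adjusted p of 0.0187. It was the call among the 7 member probe sets in this comparison, where 49 of 8379 probe sets, or 0.585%, passed. Nmdar1 ranked 26 of 8379 by p.

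The call depended on the arrays and settings used. Without the 2 arrays of lowest correlation, aggressive I array 2 and neutral I array 3, the log2 difference was 0.78 and the limma adjusted p was 0.0616. Leaving out any 1 array of aggressive I or II also raised the adjusted p above 0.05. With no filter on dim probe sets it was 0.0629, and with a trended and robust variance 0.172. Over 20 alternatives that gave a value, 10 kept the call, and Nmdar1 was not tested once the filter was raised to the percentile 60. The probe set lies low, at the percentile 41.7 of mean log2 signal beside a filter at 40. On the centred log2 scale the filter was at 9.44. Aggressive I lay above it, at 9.92 to 10.09, and aggressive II under it, at 9.18 to 9.31. Neutral I was at 9.38 to 9.73 and neutral II at 9.37 to 9.51. The mean of these other populations together lay under the filter. Nmdar1 was thus tested only through the population where it is high, which limits what the call shows.

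The 18S rRNA control probe sets, averaged per array on the log2 scale, were also higher in aggressive I than in aggressive II. They were at 12.69 to 14.34 in aggressive I and 11.79 to 11.93 in aggressive II. In neutral I they were at 11.92 to 12.16 and in neutral II at 11.56 to 12.97. Thus the 18S values of aggressive I and aggressive II did not overlap, in the same direction as Nmdar1. The highest array was aggressive I array 2, at 14.34, and the lowest was neutral II array 1, at 11.56. A relation between 18S rRNA and Nmdar1 over the 12 arrays was not tested. Fat body markers, of which 5 of 9 passed the filter, had a summed signal of 184793 to 195839 in aggressive I and 151454 to 176728 in aggressive II. It was 144436 to 161415 in neutral I and 181868 to 194736 in neutral II. Most of this sum came from apolpp and Lsp2, with mean signals of 92308 and 73816 over the 12 arrays. In aggressive I minus aggressive II, 2 of the 5 markers were above 0. Of the 5, 1 rose, beside 0.585% of all probe sets called in either direction, and their median log2 difference was -0.0021. The part of the 18S rRNA and of the fat body markers in the Nmdar1 difference was not tested.

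Between regimes, where both extremes are averaged, Nmdar1 was at 704.3 ± 214 in aggressive heads and 649.6 ± 107.6 in neutral heads (SD, n = 6 each). The log2 difference was 0.088 (SE 0.17, 95% interval -0.29 to 0.46, limma adjusted p = 0.957). Aggressive I minus neutral I was 0.37 and aggressive I minus neutral II was 0.56, with adjusted p of 0.241 and 0.0534. Aggressive II minus neutral I was -0.38 and aggressive II minus neutral II was -0.19, with adjusted p of 0.370 and 0.699. In all 4 comparisons the arrays did not overlap. The interaction, which compares aggressive I minus neutral I with aggressive II minus neutral II, was 0.56 on the log2 scale (SE 0.17, adjusted p = 0.234) and did not pass. Its pairs follow the numerals in the sample titles, which do not say that these populations belong together. The other matching was not tested. The unadjusted p of the interaction was under 0.05 for 3 of 7 members, Rdl, VGlut and Nmdar1, against 11.5% of all probe sets. Nmdar1 is in this count although it was tested only through aggressive I.

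Nmdar2 encodes the partner subunit of Nmdar1. Its brighter probe set read 762, 1015 and 923 in aggressive I, and 708, 1617 and 1429 in aggressive II. It read 992, 747 and 726 in neutral I, and 948.5, 1141 and 1202 in neutral II. The lowest and the highest array were both in aggressive II, which spread more than the other populations, at 1252 ± 479.8 (SD, n = 3).

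The log2 difference between regimes was 0.13 for this Nmdar2 probe set (SE 0.20, 95% interval -0.31 to 0.57, limma adjusted p = 0.939). Its difference of largest size was 0.51, for aggressive II minus neutral I (SE 0.25, adjusted p = 0.644). The dimmer probe set read 294, 407 and 262 in aggressive I and 428, 317 and 261 in aggressive II. It read 366.5, 356 and 219 in neutral I and 583, 186 and 191 in neutral II. Its means were 328 ± 72.4 in aggressive heads and 317 ± 153.2 in neutral heads (SD, n = 6 each), and it was not tested. Its population means lay close together, from 314 in neutral I to 335 in aggressive II, within the spread between arrays. The dimmer probe set therefore gives no order of populations to set beside that of the brighter one.

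Eaat2, a transporter of acidic amino acids known in flies to carry aspartate and taurine, varied little. It read 34491, 31109 and 37727 in aggressive I, and 31405, 38175 and 35295 in aggressive II. It was 31117, 32681 and 34087 in neutral I, and 30602, 34172 and 35544 in neutral II. The populations overlapped, and the highest array was 1.25 times the lowest. The log2 difference between regimes was 0.086 (SE 0.090, 95% interval -0.11 to 0.28, limma adjusted p = 0.906).

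Gs2, the cytosolic glutamine synthetase, read 53949.6, 52567 and 53809 in aggressive I, and 62378, 61759 and 53148 in aggressive II. It read 51320 (array 1), 58242 and 53999 in neutral I, and 56926, 56706 and 53690.2 in neutral II. The 2 highest arrays were both in aggressive II, whose remaining array lay among those of the other populations. The log2 difference between regimes was 0.044 (SE 0.086, 95% interval -0.14 to 0.23, limma adjusted p = 0.957). Over the 6 comparisons of single populations, Eaat2 and Gs2 had differences between -0.094 and 0.14, and the 95% interval of Gs2 between regimes holds folds of 0.907 to 1.17.

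**Figure D2:**
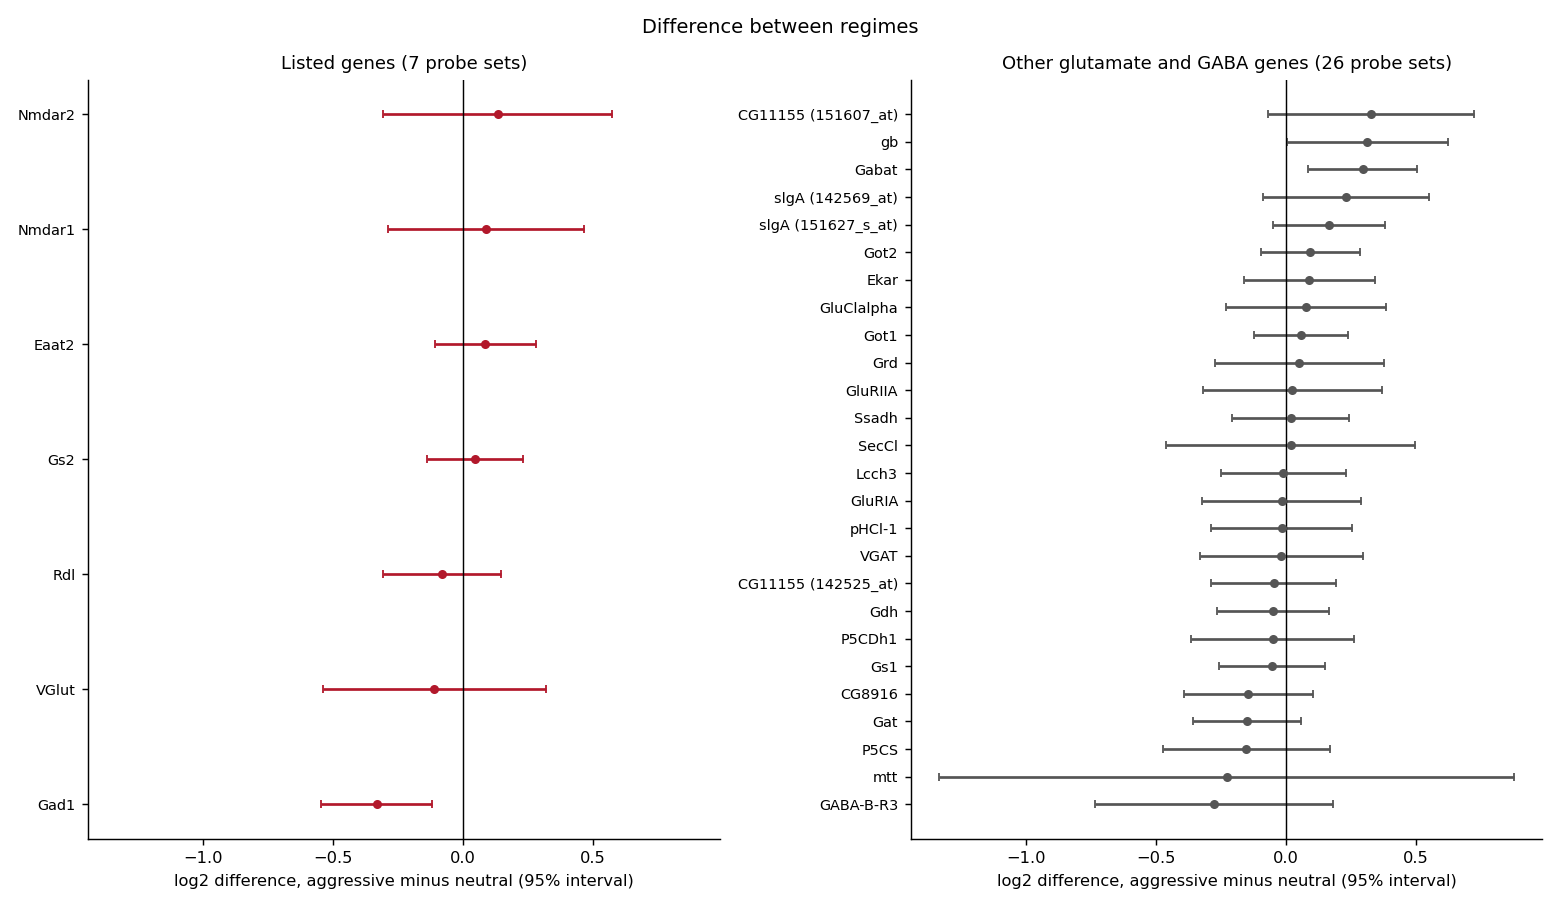
Log2 difference of aggressive minus neutral (horizontal axis, points) with its 95% interval (bars) for the 7 member probe sets, at left, and 26 probe sets of other glutamate and GABA genes, at right. Among the members, the interval of Gad1, -0.55 to -0.12, leaves out 0, before any adjustment over all probe sets.

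By population mean of the signal, Rdl ran neutral I, aggressive II, neutral II, aggressive I, and VGlut ran aggressive II, neutral I, neutral II, aggressive I. Nmdar1 ran aggressive I, neutral I, neutral II, aggressive II, and the brighter Nmdar2 probe set ran aggressive II, neutral II, aggressive I, neutral I. Eaat2 ran aggressive II, aggressive I, neutral II, neutral I, and Gs2 ran aggressive II, neutral II, neutral I, aggressive I. On the centred log2 scale, aggressive I minus aggressive II was 0.026 for Eaat2 and aggressive I minus neutral I was 0.039 for Gs2, against the order of their signal means. No pair of neighbours in these orders passed the test.

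As a list, the 7 member probe sets had a median log2 difference of 0.044 between regimes, with 4 above 0 and 3 below, beside 0.0065 over all probe sets tested. No member had 6 aggressive arrays entirely apart from 6 neutral arrays, against 1.23% of all probe sets. In the comparisons of single populations, 0 of 7 members passed for aggressive I minus neutral I, where 0.394% of all probe sets passed. The count was also 0 for aggressive I minus neutral II (1.17% of all probe sets), aggressive II minus neutral I (0.298%) and aggressive II minus neutral II (0.764%). It was 0 for neutral I minus neutral II (0.274%) and for the interaction (0.394%), all by limma.

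With an unadjusted p under 0.05 there were 4 of 7 members for aggressive I minus neutral I, against 13.1% of all probe sets. These were Gad1, Rdl, VGlut and Nmdar1, of which Nmdar1 was tested only through aggressive I, where it is high. There were 2 of 7 for aggressive I minus neutral II (12.6% of all), 2 of 7 for aggressive II minus neutral I (8.04%) and 0 of 7 for aggressive II minus neutral II (9.31%). Within regimes there were 2 of 7 for aggressive I minus aggressive II (12.9%) and 1 of 7, Rdl, for neutral I minus neutral II (8.44%).

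Arrays that did not overlap were seen for 4 of 7 members between aggressive I and neutral I, against 18.6% of all probe sets. These were Gad1, Rdl and VGlut, lower in aggressive I, and Nmdar1, higher there and tested only through that population. The count was 3 of 7 between aggressive I and aggressive II, against 18% of all, and 2 of 7 between aggressive I and neutral II, against 19.5%. It was 1 of 7 for aggressive II against neutral I (14.1% of all), 2 of 7 for aggressive II against neutral II (15.4%) and 1 of 7 for neutral I against neutral II (14.8%). These comparisons share arrays and were not compared with each other.

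**Figure D3:**
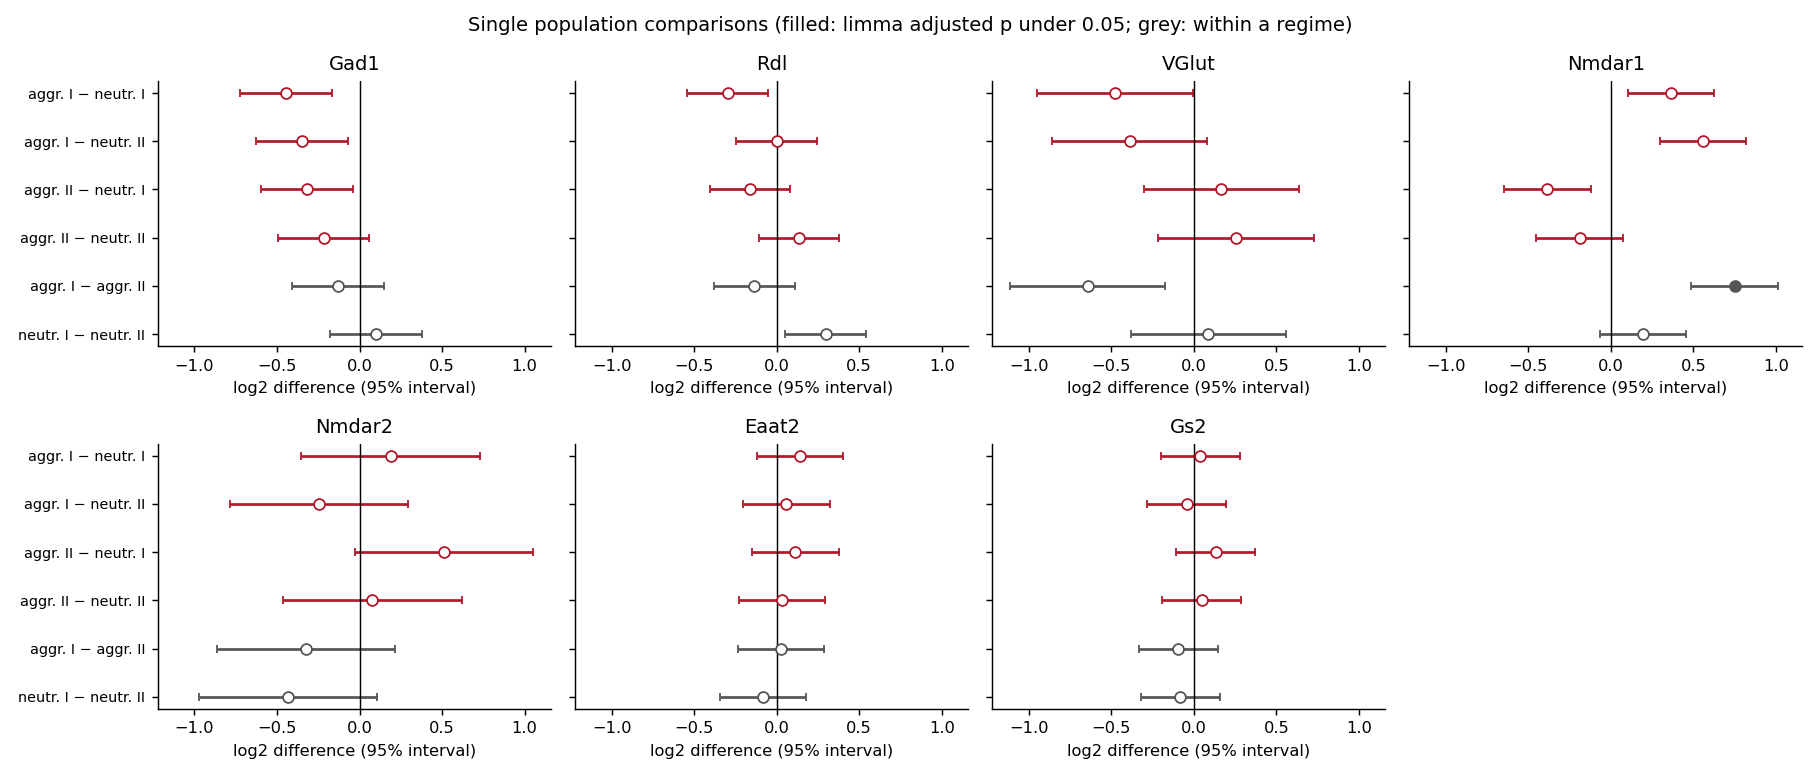
Log2 differences (horizontal axis) between single populations for the 7 member probe sets, with 95% intervals as bars, red for aggressive against neutral and grey for populations of the same regime. The filled point, Nmdar1 in aggressive I minus aggressive II at 0.75, is the only one with a limma adjusted p under 0.05. Its call was kept under 10 of 20 alternatives.

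Of 42 other genes of glutamate and GABA handling, 36 had a probe set. Of these, 24 had one past the filter, with 26 such probe sets. The list also holds other ligand-gated chloride channels, SecCl and pHCl-1 among them. Between regimes 0 of these 26 passed, beside 0.191% of all probe sets, 13 were above 0 and 13 below, and the median log2 difference was 0.0046. Unadjusted p was under 0.05 for 2 of the 26, Gabat and gb, beside 6.85% of all probe sets, so the count is near the background. Over all 8379 probe sets tested, 4340 were above 0. By role, the 2 probe sets for GABA breakdown were above 0, at 0.30 for Gabat and 0.019 for Ssadh. The 2 for GABA transport were below, at -0.15 for Gat and -0.017 for VGAT. Ssadh and VGAT lay near 0, with limma adjusted p of 0.991 and 0.994, so their signs say little. Of the 4 GABA receptor probe sets 1 was above 0, and of the 5 ionotropic glutamate receptor probe sets 3 were above 0. Of the 8 probe sets for glutamate and proline metabolism, 4 were above 0. Of the 2 for other glutamate receptors, and of the 2 for other ligand-gated chloride channels, 1 each was above 0. The 1 for glutamate export, gb, was above 0.

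Gabat, the transaminase that breaks GABA down, had the smallest p of these genes between regimes. The arrays of aggressive I gave a signal of 24086.5, 27881 and 23384, and those of aggressive II gave 24512, 20937 and 23446.5. In neutral I it was 18069.9, 20435 and 22702, and in neutral II 18031, 20188.5 and 19374. Aggressive I lay above all neutral arrays, while aggressive II overlapped neutral I. The log2 difference was 0.30 (SE 0.097, 95% interval 0.088 to 0.50, unadjusted p = 0.00888), and it did not pass, with a limma adjusted p of 0.435.

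The genderblind gene gb, a glial amino acid exchanger that sets extracellular glutamate, averaged 1693 ± 386 in aggressive heads and 1348 ± 195.6 in neutral heads (SD, n = 6 each). On the log2 scale it differed by 0.31 (SE 0.14, limma adjusted p = 0.726). Gat, the GABA transporter of glia, averaged 7682 ± 509.2 in aggressive heads and 8654 ± 938.8 in neutral heads, a log2 difference of -0.15 (adjusted p = 0.835). For slgA, proline dehydrogenase, its 2 probe sets gave 0.17 and 0.23 on the log2 scale, with adjusted p of 0.824 and 0.833. GABA-B-R3, a metabotropic GABA receptor, gave -0.27 (adjusted p = 0.861).

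CG11155, a predicted kainate-type glutamate receptor, had 2 probe sets that disagreed. The dimmer gave a log2 difference of 0.33 between regimes (SE 0.18, limma adjusted p = 0.800), and the brighter gave -0.046 (adjusted p = 0.965). The dimmer one also had some of the larger differences between single populations, 0.50 for aggressive I, and 0.65 for aggressive II, each minus neutral II. It differed by 0.49 between neutral I and neutral II. With adjusted p of 0.374, 0.322 and 0.580, none passed.

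Within the aggressive regime, VGAT, which loads GABA into vesicles, was at 4406 ± 650.1 in aggressive I and 3161 ± 146.9 in aggressive II (SD, n = 3 each), with arrays that did not overlap. The log2 difference was 0.51 (SE 0.14, limma adjusted p = 0.166). GluClalpha, the glutamate-gated chloride channel, was at 5184 ± 313.9 in aggressive I and 3949 ± 195.4 in aggressive II, again without overlap, and differed by 0.43 on the log2 scale (SE 0.14, adjusted p = 0.218). Neither passed the test. In this comparison the arrays did not overlap for 6 of the 26 other probe sets, against 18% of all probe sets. Nmdar1 was also higher in aggressive I, but likeness between Nmdar1, VGAT and GluClalpha was not tested.

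Among the remaining comparisons of single populations, aggressive II minus neutral I gave 0.48 for gb and -0.36 for VGAT on the log2 scale, with limma adjusted p of 0.527 and 0.521. Aggressive II minus neutral II gave -0.48 for P5CS, which starts proline synthesis from glutamate (adjusted p = 0.264). Aggressive I minus neutral II gave 0.43 for GluClalpha (adjusted p = 0.212), and aggressive I minus neutral I gave 0.41 for gb (adjusted p = 0.385). For mtt, a receptor of the metabotropic glutamate type, the bright probe set ranged from 152.3 to 1998 over the arrays, both extremes in the aggressive populations. Its differences of -0.75 for aggressive I minus neutral I and 0.65 for neutral I minus neutral II had an SE of 0.69 (adjusted p of 0.686 and 0.838).

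**Figure D4:**
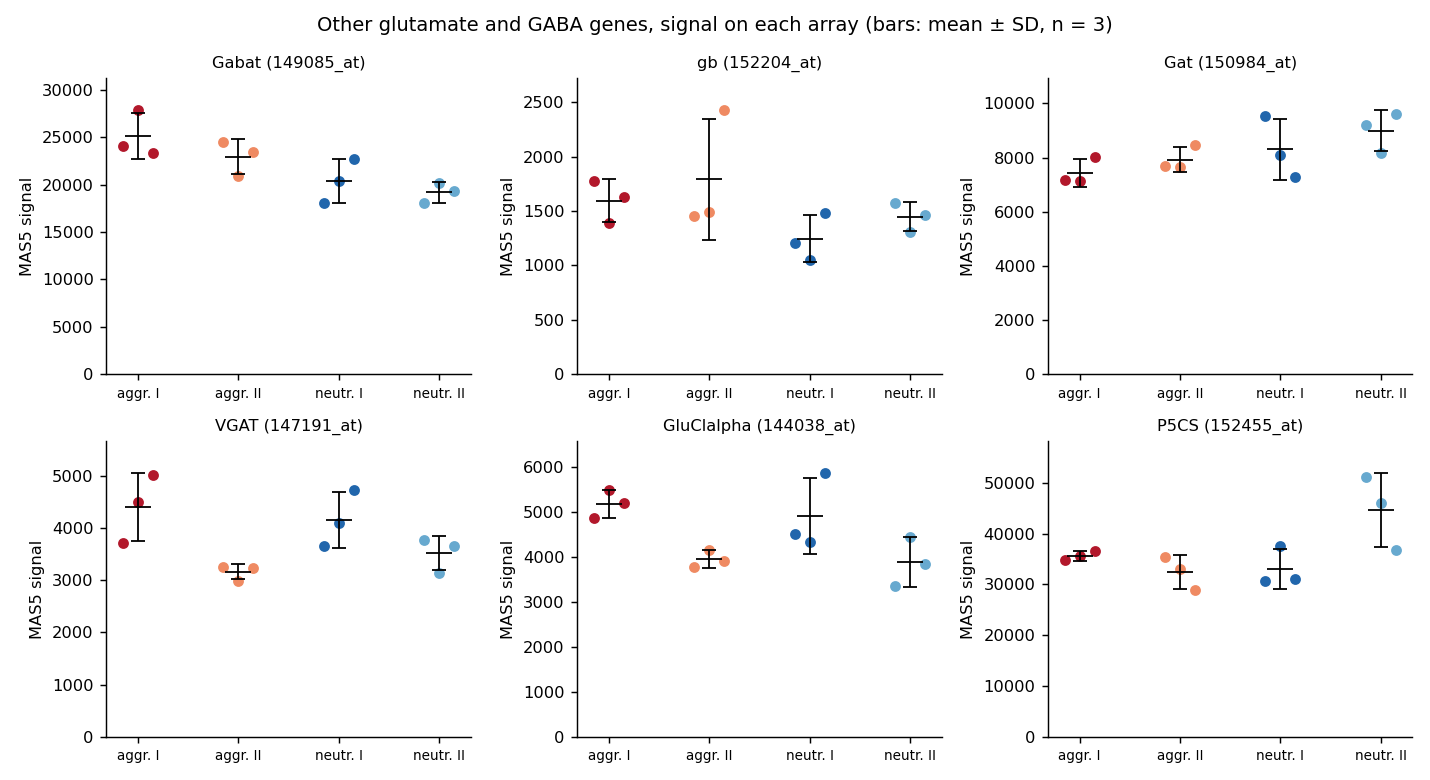
MAS5 signal (linear, vertical axis from 0) of 6 other glutamate and GABA genes on each of the 12 arrays, with bars for the mean ± SD of each population (n = 3). Gabat is higher on every aggressive I array than on any neutral array, and VGAT and GluClalpha are higher in aggressive I than in aggressive II.

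Glutamate is the transmitter at fly muscle, and muscle markers were measured too. Of 14 listed, 8 passed the filter, of which 6 were above 0 and 2 below between regimes. Of the 8, 2 rose in aggressive heads, beside 0.191% of all probe sets called in either direction, and the median log2 difference was 0.14. Their summed signal ranged over 85748 to 94124 in aggressive I and 93586 to 98407 in aggressive II. It ranged over 82079 to 85094 in neutral I and 77281 to 80185 in neutral II. Their part in the values of VGlut and of the glutamate receptors was not tested.

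The genes whose log2 values over the 12 arrays were most like each member were looked up among 7434 named probe sets outside both gene lists. For Gad1 they were CG13252, with a Pearson r of 0.877 and a Spearman rho of 0.860, and the serotonin transporter SerT, with 0.865 and 0.874. For Nmdar1 they were Drsl5, of the drosomycin-like antifungal peptide family (r = 0.902, rho = 0.909), and CG10418 (r = 0.900, rho = 0.783).

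For Rdl they were CG10383 (r = 0.840, rho = 0.853) and the odorant-binding protein Obp56h (r = 0.837, rho = 0.874). For VGlut they were the non-coding RNA lncRNA:CR42862 (r = 0.869, rho = 0.881) and RapGAP1 (r = 0.867, rho = 0.895). For Nmdar2 they were CG4502 (r = 0.878, rho = 0.86) and VhaM9.7-c (r = 0.854, rho = 0.804). For Eaat2 they were CG6225 (r = 0.846, rho = 0.755) and Vamp7 (r = 0.839, rho = 0.755). For Gs2 they were the ferritin light chain Fer2LCH (r = 0.896, rho = 0.79) and CG2218 (r = 0.891, rho = 0.853). These values are the highest of many and describe the 12 arrays, which share 1 scaling and fall into 4 populations.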

How the data were processed

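Per the submitters' processing notes, MAS5 made the deposited intensities; no version of it is given in the sources used here. From the values, the authors scaled each array to a mean of about 2500 with 2% of probe sets at each end set aside, so total RNA is not compared. Detection calls were not used here. Genes were named from the array's annotation table and RefSeq (Release 6 plus ISO1 MT), which gave 12443 probe sets with 1 gene, 327 with several, which were not named, and 1196 with none. No coordinates are printed because the values carry no build.

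The log2 of intensity plus 94.6, the 10th percentile of all values, was taken, and each array was centred on its median. This scale understates fold changes of dim probe sets. Left out were 44 controls and every probe set whose mean lay at or under the 40th percentile. The remaining 8379 were tested with limma 3.58.1 (statmod 1.5.0, R 4.3.3), with Benjamini-Hochberg adjustment at 0.05. The regime comparison had population as a random block (correlation 0.0645), and comparisons of single populations and the interaction had fixed population means over all 12 arrays. The fits were checked on simulated data that held no differences between populations of a regime. That check therefore does not cover how the model handles 2 populations per regime. The number of arrays limits the precision, and 2 populations per regime allow no permutation p below 0.333.

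All member probe sets are named. Of the other genes, those with the 6 smallest p between regimes and the 2 largest differences in each comparison of single populations are named, slgA with both its probe sets. For likeness, the 2 genes of highest r are given. The members and lists were chosen with earlier results of these data known. The alternatives were other pseudocounts, filters, normalizations, variance and block models, and the removal of single arrays or populations.

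Replicate numbers in the titles do not say that arrays were paired. Deviations of same-numbered arrays from their population means correlated between -0.078 and 0.092, with 0 of 18 pairs over 0.1, so the numbers were not used as pairs.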

Additional observations from a re-analysis of the deposited data

Results flagged for a closer look

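Single arrays far from the other 5 of their regime were looked for with Dixon's gap test on centred log2 values in 68 groups of 6 arrays, and 5 groups were picked out. Chance picks about 1 in 20. None was a member. The dimmer probe set of CG11155 was low on aggressive I array 3, at 9.87 against 10.37 to 10.50 on the other aggressive arrays (gap ratio 0.799 on this scale). SecCl, a ligand-gated chloride channel, was low on aggressive II array 1, at 9.76 against 10.66 to 10.93 (0.772). The acid-sensitive chloride channel pHCl-1 was high on aggressive I array 2, at 11.44 against 10.83 to 11.02 (0.689). Got1, an aspartate aminotransferase, was low on aggressive II array 1, at 14.64 against 14.73 to 14.78 (0.645), but its gap ratio on the deposited signal was 0.301. GluRIIA, a receptor subunit of the neuromuscular junction, was low on neutral II array 2, at 9.32 against 9.84 to 10.15 on the other neutral arrays (0.629). These SecCl and Got1 arrays are the same array. The interaction of regime with pair passed for 0 of the 7 member and 0 of the 26 other probe sets with limma, of which 3 and 1 had an unadjusted p under 0.05, beside 11.5% of all probe sets.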

How the results depend on the processing

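Of 68 log2 differences of single genes, 1484 alternative values were computed, of which 1450 kept the direction and 34 reversed. Between regimes the count of members past the threshold was 0 under all 27 alternatives and that of the other genes 0 under all 23. Gad1 ranged from -0.40 to -0.27 there, with limma adjusted p from 0.114 to 0.974. All probe sets called between regimes numbered 16, against 0 with 1 mean per population and 68 with fixed population means. In the other comparisons all calls numbered 33 for aggressive I minus neutral I (6 to 95 over the alternatives), 98 for aggressive I minus neutral II (33 to 172), 25 for aggressive II minus neutral I (13 to 55), 64 for aggressive II minus neutral II (36 to 118), 49 for aggressive I minus aggressive II (21 to 125), 23 for neutral I minus neutral II (14 to 57) and 33 for the interaction (22 to 101). For aggressive I minus neutral II, the member count was 1 (Nmdar1) with a pseudocount of 1, with quantile normalization and without neutral I array 2 (0 to 1 when single arrays were left out), with adjusted p of 0.0467, 0.0498 and 0.0355. For aggressive I minus aggressive II it was 0 with no filter (Nmdar1 adjusted p = 0.0629), with a filter at the 60th percentile, which Nmdar1 does not pass, with a trended and robust variance (0.172) and without the 2 arrays of lowest correlation (0.0616), an alternative chosen after seeing the data. Without single arrays it was 0 to 1, with an Nmdar1 difference of 0.70 to 0.79 and adjusted p of 0.0102 to 0.0715. With the replicate number as a block it was 0 (Nmdar1 adjusted p = 0.0602), and all calls between regimes numbered 7; 5 of 12 arrays correlated best with their own number, and the block changed no other member call.

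The reversals, none past the threshold, were these. Between regimes, leaving out a population gave Rdl 0.067 (without neutral I), VGlut 0.21 and Nmdar1 -0.29 (without aggressive I), Nmdar1 -0.0092 (without neutral II), Nmdar2 -0.029 and Gs2 -0.0026 (without aggressive II) and Nmdar2 -0.084 (without neutral I), and quantile normalization gave Gs2 -0.040. For aggressive I minus neutral I, Gs2 was -0.027 with no centring and -0.13 with quantile normalization. For aggressive I minus neutral II, Rdl was 0.00046 with a pseudocount of 1, 0.0037 with quantile normalization and 0.021 without the 2 arrays of lowest correlation, and Eaat2 was -0.015 with quantile normalization. For aggressive I minus aggressive II, Eaat2 was -0.021 with no centring and -0.084 with quantile normalization. Without single arrays, the range was -2.6e-05 to 0.16 for Nmdar1 between regimes, -0.0091 to 0.11 for Gs2 and -1.24 to 0.091 for mtt in aggressive I minus neutral I, and -0.043 to 0.043 for Rdl and -0.022 to 0.14 for Eaat2 in aggressive I minus neutral II. It was -0.13 to 0.40 for Nmdar2, -0.037 to 0.095 for Eaat2 and -0.0025 to 0.14 for Gs2 in aggressive II minus neutral II, -0.053 to 0.11 for Eaat2 in aggressive I minus aggressive II, and -0.042 to 0.19 for VGlut in neutral I minus neutral II. The cause was not tested. Nmdar1 and the dimmer Nmdar2 probe set lie near or under the filter, so whether they are tested depends on it.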
